A study of Rattus norvegicus with 9 samples.

Results

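The T cell receptor complex and its coreceptors were followed in bone through 10 genes: Cd3d, Cd3e, Cd3g, Cd247, Cd4, Cd8a, Cd8b, Cd2, Cd5 and Lck. Each gene was the row of that name in the deposited count and FPKM tables, and all 10 were found among 23026 genes. All 10 also passed the filter on low counts, which left 16874 genes for testing. Bone RNA of female Sprague–Dawley rats, 8 weeks old at purchase, was sequenced as poly(A)-selected mRNA in 9 libraries. The Sham group had fat tissue removed in place of the ovaries, and the OVX group had both ovaries removed. The OVX-AS-IV-High group had both ovaries removed and then received astragaloside IV (AS-IV), a saponin of Astragalus root, at 80 mg/kg. Dosing was by gavage for 8 weeks and began 6 weeks after surgery, and each group had 3 libraries that the study's methods call independent biological replicates. The vehicle was sodium carboxymethyl cellulose (CMC-Na) at 1%, except that the labels of Sham replicates 2 and 3 give 2% and 3%. The tissue was whole bone, so its RNA came from marrow and bone cells together, and fewer T cells cannot be told apart from less RNA per T cell.

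T cells recognise antigen with a receptor whose antigen-binding chains have no signaling tail of their own. Signals pass through the associated CD3 gamma, delta and epsilon chains (Cd3g, Cd3d, Cd3e) and the zeta chain (Cd247), which the kinase Lck phosphorylates. CD4 and CD8 are coreceptors that bind MHC class II and class I and bring Lck to the receptor. CD2 is an adhesion receptor of T and NK cells, and CD5 dampens receptor signals. In rats, CD4 is also carried by monocytes and macrophages, and the CD8 alpha chain by NK cells. Bone marrow holds mature T cells that return from the blood, and T cells are a known source of cytokines that act on osteoclasts.

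The promoters of 4 members are shown because Cd3g, Cd3d and Cd3e are close neighbours that were found at very different levels, and because Cd5 had the smallest p of the members. RefSeq (build GRCr8) gave windows of 300 bases, 250 before and 50 after the start site, for 8 of the 10 members, and the counts themselves were made on build mRatBN7.2. The Cd3d window lies at chr8:54185269-54185568 (plus strand), Cd3g at chr8:54183869-54184168 (minus strand), Cd3e at chr8:54211721-54212020 (minus strand) and Cd5 at chr1:216811160-216811459 (minus strand). Only 1100 bases separate the Cd3g and Cd3d windows. Capitals mark matches to CAGGTG on either strand, a form of the E-box bound by E proteins.
Cd3d: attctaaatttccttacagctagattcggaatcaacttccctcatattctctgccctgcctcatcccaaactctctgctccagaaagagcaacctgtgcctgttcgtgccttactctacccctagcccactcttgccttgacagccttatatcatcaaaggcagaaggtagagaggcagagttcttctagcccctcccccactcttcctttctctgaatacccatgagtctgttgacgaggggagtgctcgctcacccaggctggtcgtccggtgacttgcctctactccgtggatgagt
Cd3g: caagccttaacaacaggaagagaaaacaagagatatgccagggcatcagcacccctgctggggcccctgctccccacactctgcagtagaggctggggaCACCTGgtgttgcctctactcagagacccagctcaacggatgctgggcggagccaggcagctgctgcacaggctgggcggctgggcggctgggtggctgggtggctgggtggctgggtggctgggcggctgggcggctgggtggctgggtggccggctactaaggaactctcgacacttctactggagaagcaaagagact
Cd3e: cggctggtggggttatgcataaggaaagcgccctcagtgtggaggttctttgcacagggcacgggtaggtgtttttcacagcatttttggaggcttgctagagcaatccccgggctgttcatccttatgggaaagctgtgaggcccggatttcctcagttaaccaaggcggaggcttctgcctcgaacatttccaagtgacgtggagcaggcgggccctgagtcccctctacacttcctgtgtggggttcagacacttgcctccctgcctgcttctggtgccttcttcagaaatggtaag
Cd5: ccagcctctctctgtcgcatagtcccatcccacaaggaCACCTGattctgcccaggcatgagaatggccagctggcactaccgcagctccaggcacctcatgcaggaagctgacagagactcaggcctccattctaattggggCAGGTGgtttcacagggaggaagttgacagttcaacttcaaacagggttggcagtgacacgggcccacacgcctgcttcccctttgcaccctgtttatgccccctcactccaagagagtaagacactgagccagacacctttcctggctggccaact
A match stood in the Cd3g window, at -151 from the start site, and at 2 places in the Cd5 window, at -212 and -107, but not in those of Cd3d or Cd3e. Of 9 windows of members (Lck has 2), 5 held a match, as did 18.8% of the 33469 windows in the table. Of 3 other motifs searched on both strands, TGTGGT (RUNX) stood in 2 of the 9 windows and in 17.3% of all. For GATA factors only the letters AGATAA were searched, which stood in 0 of the 9 windows and in 11.6% of all. Other forms of the GATA motif were not searched. The TATA box, as TATAAA, also stood in 0 of the 9 and in 14.2% of all. These matches are a description of the letters only.

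Per transcript length, Cd4 was the most abundant of the 10 genes and Cd3d the least. Cd4 had a median of 27.4 FPKM over the 9 libraries (range 18.9 to 43.0) and made up a median of 45.5% of the FPKM of all 10 genes. Its lowest library lay above the highest library of Cd3g, the next gene, which had a median of 9.71 FPKM (7.78 to 14.1). Then followed Lck (median 6.32 FPKM, 3.71 to 13.1) and Cd8a (4.67 FPKM, 3.51 to 18.3). Cd2 had a median of 3.09 FPKM and Cd3e of 2.22 FPKM, and the lowest levels were those of Cd5 (1.34 FPKM), Cd8b (1.32 FPKM), Cd247 (1.03 FPKM) and Cd3d (0.711 FPKM). Below Cd4, the ranges of all neighbours in this order overlapped. Cd3g was nevertheless above Lck in all 9 libraries, Lck above Cd8a in 7 and Cd247 above Cd3d in 8, whereas Cd5 was above Cd8b in 5 of the 9.

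**Figure D1:**
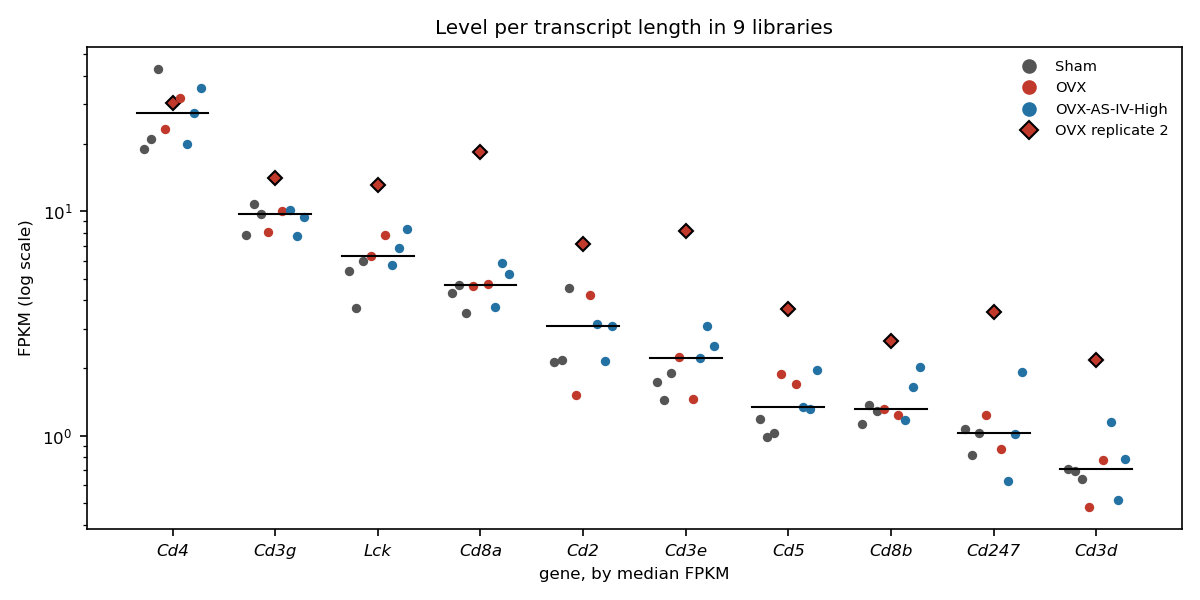
FPKM (log scale) of the 10 genes in 9 libraries, ordered by median FPKM (black line), with circles colored by group and a diamond for OVX replicate 2. Cd4 lies between 18.9 and 43.0 FPKM, above every library of the other 9 genes, and OVX replicate 2 is the highest library for every gene but Cd4.

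The 3 CD3 chains form the receptor together, but their transcripts were not found at equal levels. Cd3g, with 7.78 to 14.1 FPKM, was higher than Cd3d in every library, by a factor between 6.49 and 16.8 (median 12.9). Over Cd3e, with 1.44 to 8.14 FPKM, the factor of Cd3g lay between 1.73 and 7.52 (median 4.49). Both of the lowest factors belonged to OVX replicate 2. Across the 8 other libraries Cd3g varied by 1.45-fold from the lowest to the highest CPM, against 2.49-fold for Cd3d and 2.13-fold for Cd3e. Cd3g had 243 to 329 counts in those libraries, Cd3d 28 to 69 and Cd3e 63 to 143. Counting error widens such ranges more at lower counts, and its part was not tested. On the other side of Cd3g in the RefSeq order stands Ube4a, a ubiquitin ligase gene, which had 11.8 to 15.2 FPKM. The ratio of Cd3g to Ube4a was between 0.566 and 1.03. Whether reads of other origin are counted for Cd3g was not tested.

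A single library, OVX replicate 2, stood apart in these genes, and every comparison with the OVX group rests in part on it. CPM (the share of a library's counts, scaled to a common size after TMM) was highest there for 9 of the 10 members, where 11.1% of all genes tested were highest in that library. The exception was Cd4, which ranked 4th there and was highest in Sham replicate 3. Cd8a had 24.6 CPM in OVX replicate 2 against 4.90 to 8.23 CPM in the other 8 libraries, a factor of 3.82 over their median. Cd3e had 9.92 CPM against 1.82 to 3.87 CPM (3.83-fold over the median). In that library Cd247 was 3.34-fold, Cd3d 3.00-fold, Cd5 2.63-fold, Cd2 2.61-fold and Lck 2.06-fold over the median of the others. Cd8b was 1.98-fold, Cd3g 1.43-fold and Cd4 1.17-fold over it. More than 1.5-fold was reached by 8 of the 10 members and by 7.09% of all genes tested.

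**Figure D2:**
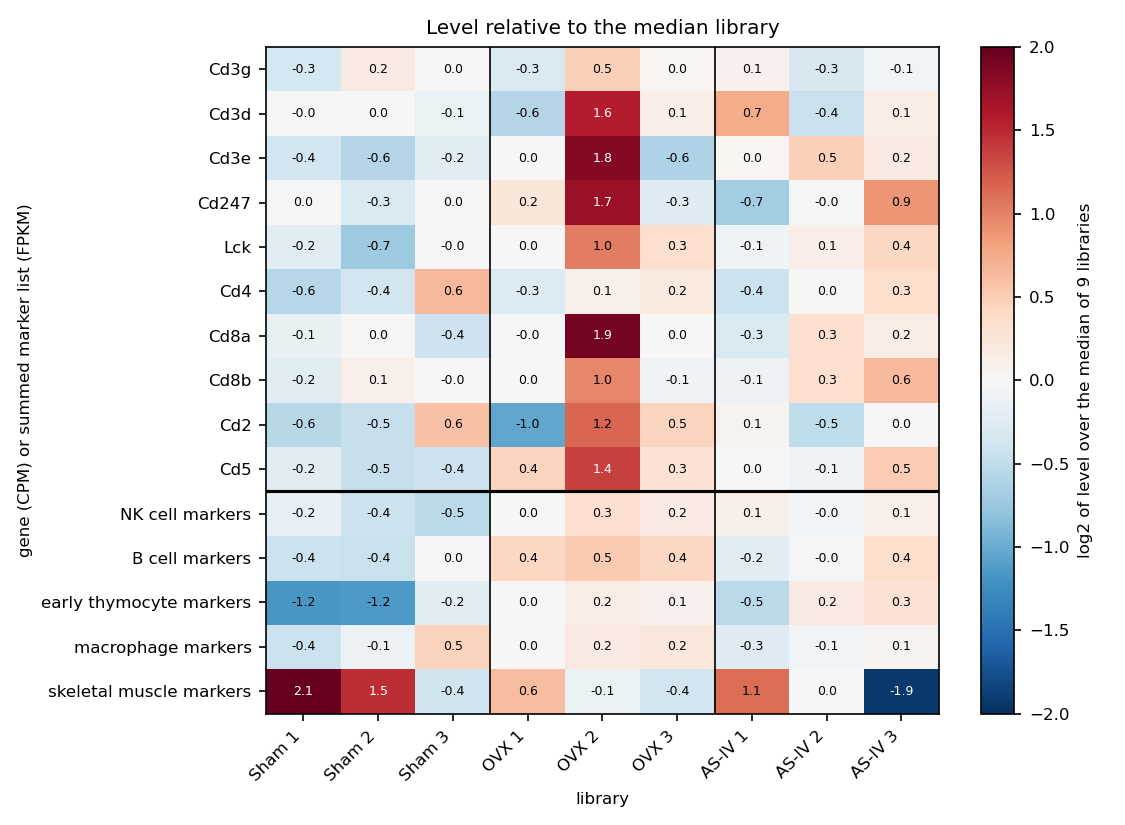
Log2 of each level over its median across 9 libraries, for the 10 genes (CPM) and, under the thick line, for the summed FPKM of 5 lists of cell type markers. The column of OVX replicate 2 is red for every gene except Cd4, which is pale, while the muscle row varies within every group.

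Other T cell genes were high in the same library, and so were some genes of NK cells. Among 13 tested costimulatory and inhibitory receptors 8 were more than 1.5-fold over the median of the other libraries, as were 6 of 9 homing and cytokine receptors, 8 of 22 signaling genes and 5 of 12 transcription factors of the T lineage. Zap70, the kinase that docks on the phosphorylated CD3 chains, had 3.46 FPKM there and 0.397 to 1.04 FPKM elsewhere, and was picked for mention after its values were seen. Of 8 tested NK cell markers 5 passed 1.5-fold, with Klrd1, an NK receptor also carried by cytotoxic T cells and likewise picked after its values were seen, at 6.43 FPKM against 0.616 to 1.68 FPKM. Among 9 B cell markers 1 passed 1.5-fold, and 0 of 9 macrophage markers, 0 of 8 neutrophil markers and 0 of 5 early thymocyte markers did. Early thymocyte genes such as Dntt, which adds bases to rearranging receptor genes, were thus not above that limit (27.4 FPKM in OVX replicate 2, 7.71 to 30.0 FPKM elsewhere). Among markers of non-lymphoid cells, 5 of 8 of osteoblasts, 3 of 6 of adipocytes, 1 of 6 of dendritic cells, 0 of 9 of erythroid cells and 0 of 9 of muscle passed 1.5-fold in that library, as did 1 of 4 of the lymph node. The part of other cell types in the level of the members was not tested.

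**Figure D3:**
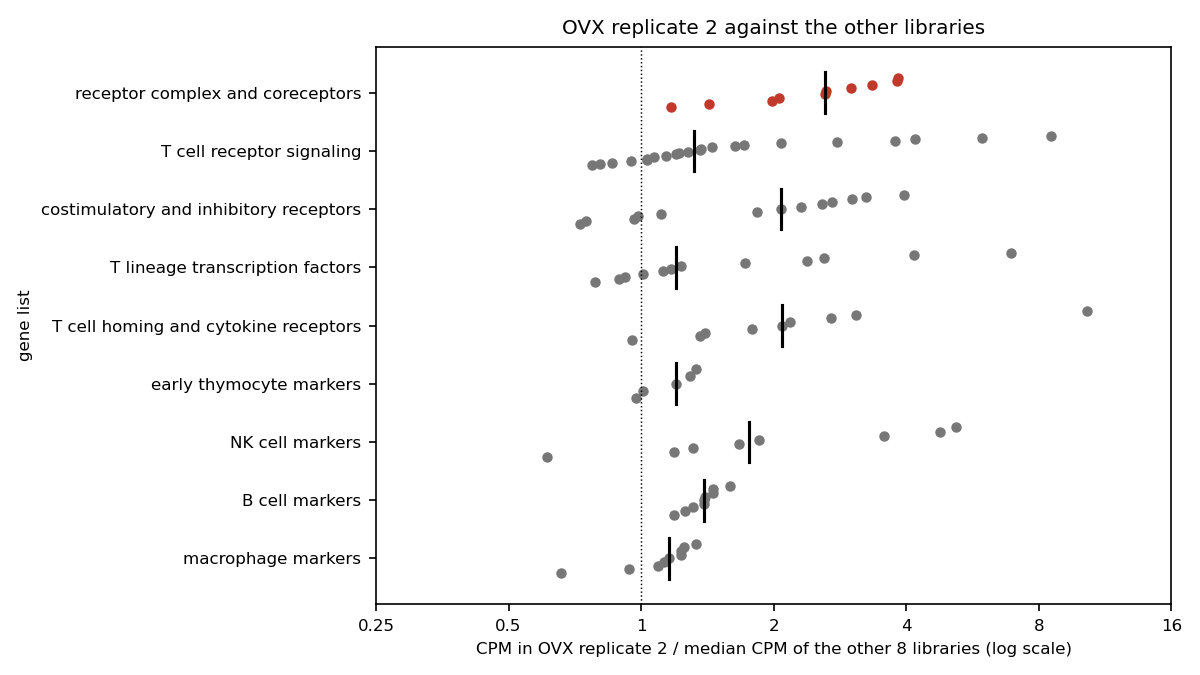
CPM in OVX replicate 2 divided by the median CPM of the other 8 libraries (log scale), with a point for each tested gene and a black bar at the median of its list. The 10 receptor and coreceptor genes have a median of 2.62, the macrophage markers of 1.16, and all genes tested of 0.998.

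The first comparison asked how removal of the ovaries changed these genes in bone. All 10 members had a positive log2 fold change (log2FC) in OVX vs. Sham, as had 49.2% of all genes tested, and their median log2FC was 0.763 against -0.0062 for all genes. Cd5 and Cd8a were past the thresholds of the study (DEGs, whose absolute log2FC is over 1 at an unadjusted p under 0.05), which is 2 of 10 members where 3.11% of all genes were. With Lck, 3 of 10 members had an unadjusted p under 0.05 and were higher in OVX, against 8.16% of all genes tested. After Benjamini-Hochberg adjustment over all genes, edgeR gave an adjusted p under 0.05 to 0 members and 0% of genes, while DESeq2 gave 1 member, Cd5 (adjusted p = 0.025), and 4.94% of genes. At the lower fold threshold that the methods of the study give, an absolute log2FC over 0.58, Cd5, Cd8a and Lck passed, which is 3 of 10 members against 6.96% of all genes, and only Cd5 passed when OVX replicate 2 was left out (5.81% of genes). Without OVX replicate 2, 5 of the 10 members had a positive log2FC (49.1% of all genes) and the median was 0.0485. In that fit 0 members were past the thresholds, against 2.72% of all genes.

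Cd5, the inhibitory receptor, had 2.45, 2.11 and 2.17 CPM in Sham replicates 1 to 3, 3.92, 7.44 and 3.53 CPM in OVX and 2.89, 2.76 and 4.12 CPM in OVX-AS-IV-High. Every OVX library lay above every Sham library (exact two-sided permutation test, p = 0.1, which is the smallest p possible for 3 against 3 libraries). The log2FC in OVX vs. Sham was 1.15 (SE 0.320, edgeR adjusted p = 0.166). Without OVX replicate 2 it was 0.73 (SE 0.267, edgeR adjusted p = 0.374), under the fold threshold but with the same direction. In that fit Cd5 was the only one of the 10 members with an unadjusted p under 0.05, and 5.98% of all genes had such a p with a higher level in OVX. CD5 is also carried by some B cells, and the 9 B cell markers in the table summed to 820 to 888 FPKM in OVX against 453 to 616 FPKM in Sham. Of these, 8 had an unadjusted p under 0.05, all higher in OVX (8.16% of all genes), and 8 did without OVX replicate 2 (5.98%). The part of these markers in the level of Cd5 was not tested.

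Lck, the kinase that begins receptor signaling, had 14.2, 10.1 and 16.2 CPM in Sham, 16.7, 33.9 and 21.0 CPM in OVX and 15.8, 18.4 and 22.2 CPM in OVX-AS-IV-High. Its OVX libraries did not overlap the Sham libraries, though the nearest values, 16.7 and 16.2 CPM, were close (two-sided exact permutation test, p = 0.1). The log2FC was 0.82 (SE 0.273, edgeR adjusted p = 0.206), and 0.48 (SE 0.230, edgeR adjusted p = 0.447, unadjusted p over 0.05) without OVX replicate 2. RefSeq places LOC120102985 over Lck, and this gene was listed with 25 to 45 counts a library against 346 to 1286 for Lck. Cd5 and Lck were 2 of 10 members whose OVX and Sham libraries did not overlap, where 23.3% of all genes tested did not.

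The CD8 coreceptor is a pair of an alpha and a beta chain on cytotoxic T cells. Cd8a had 5.91, 6.63 and 4.90 CPM in Sham, 6.35, 24.6 and 6.54 CPM in OVX and 5.31, 8.23 and 7.26 CPM in OVX-AS-IV-High. Only OVX replicate 2 was high, and the other OVX libraries lay within the Sham range. The log2FC in OVX vs. Sham of 1.11 (SE 0.488, edgeR adjusted p = 0.302) came to 0.15 (SE 0.242, edgeR adjusted p = 0.795) without that library. With the replicate number as a block it was 0.86 (edgeR adjusted p = 0.227), which is not past the fold threshold. Cd8b had 1.40, 1.76 and 1.63 CPM in Sham, 1.64, 3.24 and 1.55 CPM in OVX and 1.51, 2.08 and 2.56 CPM in OVX-AS-IV-High, with overlap in every comparison. Its log2FC in OVX vs. Sham was 0.42 (SE 0.354, edgeR adjusted p = 0.551). The FPKM ratio of Cd8a to Cd8b was 6.88 in OVX replicate 2 and 2.57 to 3.83 in the others. The 2 chains were thus not raised in equal measure in that library.

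Cd4, the coreceptor of helper T cells, was the member that was not highest in OVX replicate 2. It had 60.9, 70.0 and 142 CPM in Sham, 74.8, 96.6 and 104 CPM in OVX and 67.1, 90.5 and 115 CPM in OVX-AS-IV-High. The group means were 90.8 ± 44.2, 91.8 ± 15.2 and 91.0 ± 24.2 CPM (SD, n = 3 each), and the ranges of the 3 groups overlapped. The log2FC in OVX vs. Sham was 0.02 (SE 0.315, 95% interval from -0.69 to 0.73, edgeR adjusted p = 0.985). Over the 9 libraries, the log2 CPM of Cd4 had a Pearson r of 0.902 with the mean of the macrophage markers (0.905 without OVX replicate 2) and of 0.333 with the mean of the other members (0.551 without that library). These r are descriptions of 9 libraries that share their depth and composition. For the other 9 members, r was 0.133 to 0.656 with the macrophage markers and 0.65 to 0.858 with the remaining members. With OVX replicate 2 left out, the latter came to between -0.0452 and 0.705, a range that holds the value of Cd4. For the same 9 members, r with the macrophage markers then ran from -0.203 to 0.663. It exceeded r with the remaining members for Cd2 (0.663 against 0.257) and Cd3g (0.381 against -0.0367) only. The macrophage markers summed to 335, 412 and 619 FPKM in Sham replicates 1 to 3, the order in which Cd4 stood there. Between OVX and Sham, 0 of 9 differed at an unadjusted p under 0.05. Of all genes, 8.16% were higher and 8.28% lower in OVX. The part of these markers in the level of Cd4 was not tested. The FPKM ratio of Cd4 to Cd8a was 1.66 in OVX replicate 2, 12.3 in Sham replicate 3 and between 4.37 and 6.75 in the other 7 libraries.

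The chains that carry the signal, and Cd2, were also highest in OVX replicate 2. Cd3e had 2.14, 1.85 and 2.39 CPM in Sham, 2.78, 9.92 and 1.82 CPM in OVX and 2.86, 3.87 and 3.16 CPM in OVX-AS-IV-High. OVX thus held the highest and the lowest library of all, and the log2FC in OVX vs. Sham was 1.18 (SE 0.546, edgeR adjusted p = 0.317), or 0.11 (SE 0.298) without OVX replicate 2. Cd247 had 1.81, 1.44 and 1.78 CPM in Sham and 2.10, 5.91 and 1.49 CPM in OVX, with a log2FC of 0.92 (SE 0.550, edgeR adjusted p = 0.411). Its OVX-AS-IV-High libraries had 1.10, 1.76 and 3.30 CPM. For Cd3d the levels were 1.13, 1.14 and 1.04 CPM in Sham, 0.763, 3.40 and 1.25 CPM in OVX and 1.90, 0.839 and 1.26 CPM in OVX-AS-IV-High. The Sham libraries of Cd3d lay close together and the OVX libraries on both sides of them (log2FC 0.71, SE 0.536, edgeR adjusted p = 0.511). Cd3g had 6.68, 9.65 and 8.51 CPM in Sham, 6.92, 11.9 and 8.74 CPM in OVX and 9.03, 6.82 and 8.22 CPM in OVX-AS-IV-High. The OVX vs. Sham log2FC of Cd3g was 0.15 (SE 0.234, 95% interval from -0.37 to 0.68). Cd2, the adhesion receptor, had 2.42, 2.58 and 5.33 CPM in Sham, 1.74, 8.04 and 4.88 CPM in OVX and 3.74, 2.52 and 3.57 CPM in OVX-AS-IV-High, and a log2FC of 0.51 (SE 0.512, edgeR adjusted p = 0.623). The 95% intervals of Cd3e, Cd247, Cd3d, Cd3g, Cd4, Cd8b and Cd2 all held 0.

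**Figure D4:**
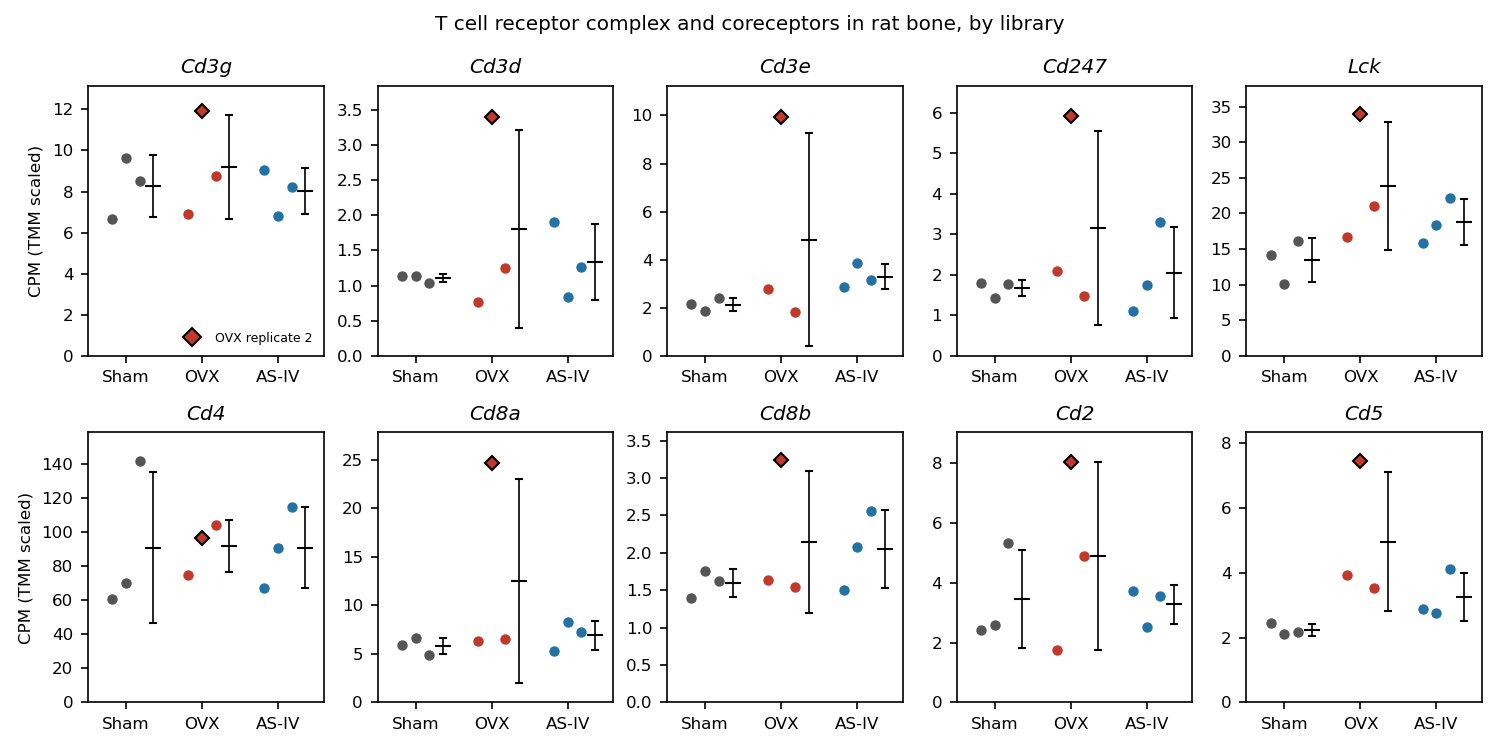
TMM-scaled CPM of each gene by library in 3 groups, where AS-IV stands for OVX-AS-IV-High, with points for libraries in replicate order, a diamond for OVX replicate 2 and bars for mean ± SD (n = 3). For Cd8a, the diamond at 24.6 CPM stands alone, while for Cd5 all OVX libraries lie above the Sham libraries.

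The second comparison asked what high-dose AS-IV changed in ovariectomised rats. All 10 members had a negative log2FC in OVX-AS-IV-High vs. OVX, from -0.85 for Cd8a to -0.01 for Cd4. Among all genes tested, 46.7% had a positive one. The median of the members was -0.494 against -0.0163 for all genes tested. None was past a threshold: 0 of 10 members had an unadjusted p under 0.05 in edgeR or in DESeq2, where 2.03% of all genes tested were lower and 4.42% higher with such a p in edgeR. The DEGs were 0 of the members and 0.83% of all genes, and 0 members and 0% of genes had an adjusted p under 0.05. The libraries of the 2 groups overlapped for all 10 members, whereas they did not for 12.7% of all genes. The smallest p was that of Cd5 (log2FC -0.61, SE 0.316, 95% interval from -1.32 to 0.10, edgeR adjusted p = 0.838). For Cd8a, the log2FC of -0.85 had an SE of 0.485 and a 95% interval from -1.94 to 0.24. Without OVX replicate 2 the median became 0.0693, and 7 of the 10 members had a positive log2FC, against 47.3% of all genes. The values of the members then ran from -0.19 for Cd5 to 0.52 for Cd3e.

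**Figure D5:**
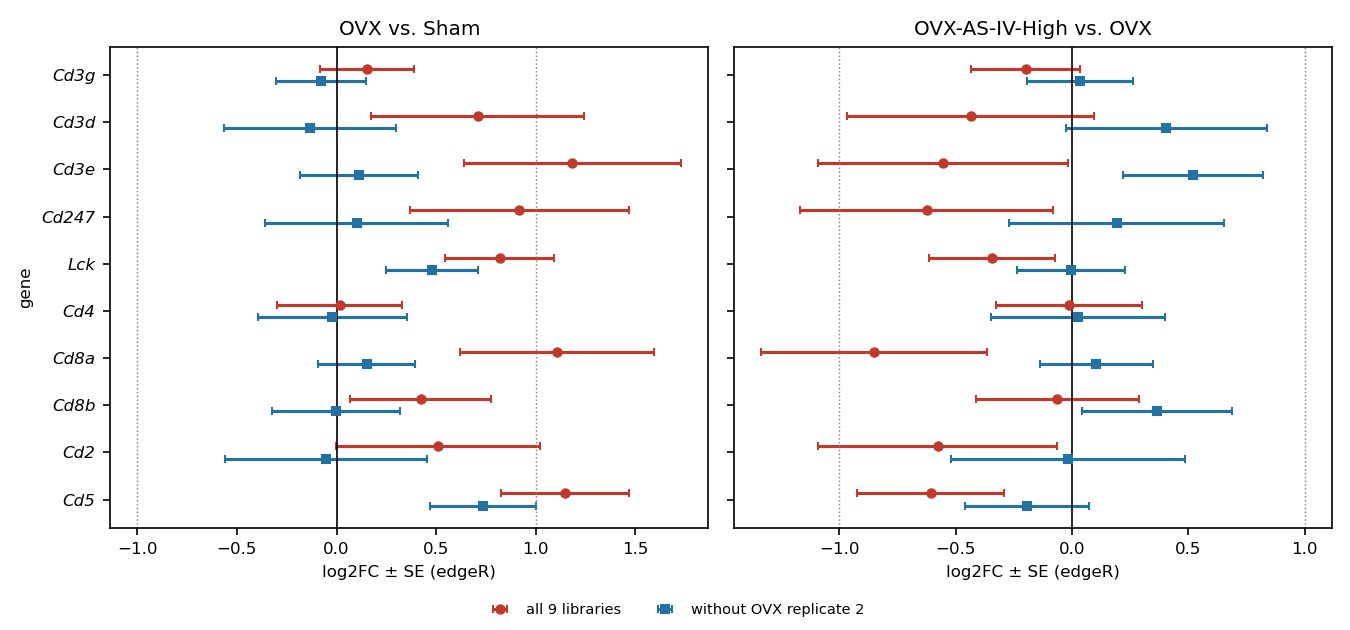
Log2FC ± SE from edgeR for the 10 genes in OVX vs. Sham (left) and OVX-AS-IV-High vs. OVX (right), with all 9 libraries (red circles) and without OVX replicate 2 (blue squares). Dotted lines mark a log2FC of -1 and 1. On the left, the log2FC of Cd8a goes from 1.11 to 0.15 and that of Cd5 from 1.15 to 0.73 when that library is left out.

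Against Sham, the treated rats had 8 of 10 members with a positive log2FC (48.4% of all genes tested), a median log2FC of 0.282 against -0.0126 for all genes, and 0 members with an unadjusted p under 0.05 in edgeR or in DESeq2. Among all genes, 9.17% were higher and 8.48% lower with such a p in edgeR. By the DEG thresholds there were again 0 members against 3.15% of genes, and 0 members and 0% of genes had an adjusted p under 0.05. The OVX-AS-IV-High libraries lay above all Sham libraries for Cd3e and Cd5, which is 2 of 10 members where 19.9% of all genes did not overlap. Cd3e had a log2FC of 0.63 (SE 0.544, edgeR adjusted p = 0.571), with the same log2FC of 0.63 but a smaller SE of 0.266 when OVX replicate 2, which belongs to neither group, was left out of the shared estimate of spread (edgeR adjusted p = 0.298, unadjusted p under 0.05). For Cd5, the log2FC was 0.54 (SE 0.320, edgeR adjusted p = 0.412), and for Lck it was 0.48 (SE 0.272, edgeR adjusted p = 0.397). These 2 comparisons and the first share libraries pairwise, so their values are given side by side and are not independent of each other.

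Genes that act with the receptor were taken from lists of its signaling, costimulation, homing and transcription factors. None of 6 constant chains of the antigen-binding receptor itself was listed in the tables by name. In T cell receptor signaling, 7 of 22 tested genes had an unadjusted p under 0.05 and were higher in OVX than in Sham, and 1 of 22 was lower, against 8.16% and 8.28% of all genes. Without OVX replicate 2, 5 were higher and 2 lower, where 5.98% of all genes were higher. The most abundant were Csk, the kinase that holds Lck inactive, and Ptprc, the CD45 phosphatase of all leukocytes. Csk had 54.6, 55.2 and 61.4 FPKM in Sham and 75.0, 77.3 and 76.4 FPKM in OVX (log2FC 0.39, SE 0.0954, edgeR adjusted p = 0.149). Ptprc had 43.9 to 58.5 FPKM in Sham, 57.3 to 62.9 FPKM in OVX and 60.6 to 110 FPKM in OVX-AS-IV-High.

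Among the signaling genes, Sh2d2a and Trat1 were DEGs in OVX vs. Sham. Sh2d2a, which encodes an adaptor that binds Lck, had 0.840, 0.679 and 0.968 FPKM in Sham, 2.33, 4.00 and 1.04 FPKM in OVX and 0.532, 0.878 and 1.69 FPKM in OVX-AS-IV-High. Against Sham, OVX had a log2FC of 1.53 (SE 0.527), and OVX-AS-IV-High against OVX a log2FC of -1.21 (SE 0.520). Without OVX replicate 2, they were 1.01 and -0.69, neither with an unadjusted p under 0.05. Trat1, which encodes a transmembrane adaptor of the receptor, had only 15, 4 and 3 counts in Sham, 8, 115 and 11 counts in OVX and 52, 55 and 19 counts in OVX-AS-IV-High. The treated libraries were all above the Sham libraries (log2FC 2.46, SE 1.07), whereas the OVX vs. Sham log2FC of 2.51 came to 0.33 without OVX replicate 2.

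Of 13 tested costimulatory and inhibitory receptors, 3 were higher and 1 lower in OVX with an unadjusted p under 0.05. Of all genes, 8.16% were higher and 8.28% lower. All 4 of these receptors were DEGs, where 3.11% of all genes were. With OVX replicate 2 left out, 1 was higher (Btla) and 1 lower (Tnfrsf4). Btla, an inhibitory receptor of B and T cells, had 3.23, 3.03 and 4.63 FPKM in Sham and 7.66, 8.12 and 9.33 FPKM in OVX. Its log2FC of 1.18 (SE 0.161, edgeR adjusted p = 0.118) was 1.21 without OVX replicate 2. Ctla4, which competes for the ligands of CD28, had 0.0623 to 0.0852 FPKM in Sham, 0.0959, 0.413 and 0.154 FPKM in OVX and 0.222 to 0.326 FPKM in OVX-AS-IV-High. Both groups of ovariectomised rats lay above Sham for Ctla4, with a log2FC of 1.54 (SE 0.586) for OVX and of 1.81 (SE 0.584) for OVX-AS-IV-High, at very low levels. Cd96, a receptor of T and NK cells, had a log2FC of 1.06 (SE 0.352) in OVX vs. Sham and of -1.03 (SE 0.351) in OVX-AS-IV-High vs. OVX. These were 0.73 and -0.70 without OVX replicate 2. Tnfrsf4, the OX40 receptor, was lower in OVX (log2FC -1.04, SE 0.337), with 1.65 to 1.76 FPKM against 2.20 to 4.69 FPKM in Sham. Cd226, the most abundant gene of this list, had 6.14 to 10.2 FPKM in Sham and 6.46 to 9.48 FPKM in OVX, which overlapped.

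Among 9 tested homing and cytokine receptors, 4 had an unadjusted p under 0.05 in OVX vs. Sham, all higher, against 8.16% of all genes. Without OVX replicate 2, 2 were higher and 1 lower (5.98% of all genes higher). Ccr7, which guides lymphocytes to lymph nodes, had 0.230, 0.566 and 0.461 FPKM in Sham, 0.817, 2.28 and 0.671 FPKM in OVX and 0.750, 1.37 and 1.38 FPKM in OVX-AS-IV-High. Its log2FC against Sham was 1.54 (SE 0.555) in OVX and 1.47 (SE 0.555) in OVX-AS-IV-High, the former 0.80 without OVX replicate 2. Ccr6 (log2FC 1.11, SE 0.348) and Cxcr3 (1.05, SE 0.410), chemokine receptors of T cell subsets, were DEGs in OVX vs. Sham and had 0.87 and 0.56 without that library. Il7r, the receptor for interleukin 7, had 5.40 to 13.9 FPKM in Sham and 10.3 to 15.8 FPKM in OVX.

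Of 12 T lineage transcription factors, 1 had an unadjusted p under 0.05 in OVX vs. Sham and was higher (8.16% of all genes). Without OVX replicate 2, 2 were higher and 2 lower (5.98% of all genes higher). With all libraries the 1 gene was Ets1, with 27.4 to 30.1 FPKM in Sham and 37.7 to 45.9 FPKM in OVX (log2FC 0.51, SE 0.123, edgeR adjusted p = 0.149). Satb1, the next in abundance, had 7.88 to 11.3 FPKM in Sham and 9.02 to 9.56 FPKM in OVX. Early thymocyte markers are shared in part by B cell precursors. Of 5, 3 were higher in OVX at an unadjusted p under 0.05 (8.16% of all genes), and 2 without OVX replicate 2 (5.98%). Rag1, of the recombinase that rearranges receptor genes, had 5.99, 9.21 and 15.8 FPKM in Sham and 17.8, 22.3 and 21.6 FPKM in OVX (log2FC 0.96, SE 0.364), and 0.91 without OVX replicate 2. Dntt had a log2FC of 0.73 (SE 0.396, edgeR adjusted p = 0.372).

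Between OVX-AS-IV-High and OVX, 1 signaling gene was higher and 3 were lower at an unadjusted p under 0.05. Of 13 costimulatory and inhibitory receptors 1 was lower, and 0 of 12 transcription factors and 0 of 9 homing and cytokine receptors passed. Of all genes, 4.42% were higher and 2.03% lower. When OVX replicate 2 was left out, 1 signaling gene, 0 costimulatory and inhibitory receptors, 1 transcription factor and 2 homing and cytokine receptors passed, all higher in OVX-AS-IV-High. Of 6 adipocyte markers, 5 were higher in OVX than in Sham at an unadjusted p under 0.05, against 8.16% of all genes. The 6 markers summed to 339 to 439 FPKM in Sham and 498 to 675 FPKM in OVX. Muscle varied between libraries of every group, with 901 to 5189 FPKM for the sum of 9 muscle markers in Sham, 905 to 1808 FPKM in OVX and 312 to 2565 FPKM in OVX-AS-IV-High. NK cell markers summed to 102 to 132 FPKM in Sham, 148 to 187 FPKM in OVX and 143 to 161 FPKM in OVX-AS-IV-High, most of it from Nkg7, a gene of cytotoxic granules, with 92.7 to 167 FPKM. Glycam1 of the lymph node list, Cd160 of the NK list and Ccr4 had 3 counts or fewer in every library. The part of any of these in the members' levels was not tested.

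The genes most like the members were sought among all tested genes with a mean of at least 1 CPM, by the Pearson r over 9 libraries between their log2 CPM and the mean standardized log2 CPM of the members. Among the 10 highest were Pde4b and Tcf7 (r = 0.94 each), Slc25a53 (0.929), Zbed3 (0.927), Gzmm and Gzmk (0.921 each), Glb1 (0.92), Gab2 (0.914) and Itpkb (0.908). Tcf7 is a transcription factor of the T lineage, Gzmm and Gzmk encode granule proteases of cytotoxic lymphocytes, and Pde4b encodes a phosphodiesterase that breaks down cAMP. Gzmk had 19.7 FPKM in OVX replicate 2 and 1.17 to 3.34 FPKM in the other libraries, and Gzmm 11.2 FPKM against 2.59 to 4.81 FPKM. For Gzmk the likeness was mostly that of a single library, since r was 0.582 without it, and over the 10 genes r without it was 0.558 to 0.864. Tcf7 had 2.27 FPKM in that library and 0.774 to 1.15 FPKM elsewhere.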

How the data were processed

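Bone mRNA of 9 rats in 3 groups was sequenced. The authors filtered reads with NGS QC Toolkit, aligned them with Tophat/Bowtie2 and quantified genes with eXpress. Build mRatBN7.2 is given in the submitters' processing notes, and whether counting used strand is not given in the sources used here. As deposited, the counts are whole numbers that were not normalized, with 34874880 to 37298250 counts a library. The deposited FPKM values are these counts rescaled by depth and gene length. Both tables gave a single length within 1% for each of 11928 genes with 100 counts or more in every library. Counting error and the spread of 3 libraries limit precision.

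The edgeR quasi-likelihood test (version 4.0.16, R 4.3.3) was applied to the counts (TMM, a minimum count of 10 in the default filter, all 9 libraries in a single fit, common biological coefficient of variation 0.256). A DEG had an absolute log2FC over 1, as in the results of the study, at an unadjusted p under 0.05. P-values were adjusted by Benjamini-Hochberg over 16874 genes. Alternatives were DESeq2 1.42.0, RLE size factors, no filter, limma 3.58.1 on log2(FPKM + 1) and log2(FPKM + 0.1), only the groups compared, a replicate block, each library left out in turn, and, added after seeing the data, levels relative to Ptprc and the log2FC threshold of 0.58 in the methods of the study. In simulated counts for OVX vs. Sham, with 200 of 16662 genes changed 3-fold, edgeR placed 191 changed and 206 unchanged genes past the thresholds and gave an adjusted p under 0.05 to 148 and 7. The simulation drew each gene independently and held no library that stood apart, so it does not give the power in the real libraries. Plots and tables used Python 3.11.15, scipy 1.17.1 and matplotlib 3.10.9.

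The members and lists were chosen with earlier results of these data known. Named genes were the members, list genes past the thresholds, the 2 most abundant genes of each pathway list, and the 10 genes most like the members, of which 2 genes in all are not reported here. Same-numbered libraries of OVX and OVX-AS-IV-High had r = 0.31, 0.158 and 0.13 between their deviations from the group means. Unlike-numbered libraries of these groups had r from -0.283 to 0.178. The methods of the study describe random groups and independent replicates, and pairing by number was not established. Values reported are from the fit without the block, and the replicate block is an alternative. Nor was it established for OVX and Sham (r = 0.2, -0.161 and 0.253 for the same number) or for OVX-AS-IV-High and Sham (0.314, -0.158 and 0.435). The replicate differences within groups exceeded counting noise in every pair of libraries.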

Additional observations from a re-analysis of the deposited data

How the results depend on the processing

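The 2 members past the thresholds in OVX vs. Sham were Cd5 and Cd8a, where 3.11% of all genes passed. Only Cd5 was left with RLE size factors (3.13% of genes) or limma on log2(FPKM + 0.1) (1.87%). Cd5 alone was also left with only the groups compared (3.13%) or the replicate block (4.18%). With limma on log2(FPKM + 1), 0 members were left (0.444% of genes). DESeq2 (3.46% of genes) or no filter on low counts (3.44%) gave 3 members, Cd3e, Cd8a and Cd5. A log2FC threshold of 0.58 gave 3, Cd8a, Cd5 and Lck (6.96% of genes). With single libraries left out the count was 0 to 4, and it was 0 without OVX replicate 2 and 4 without OVX replicate 1 or OVX replicate 3, where 2.72%, 4.52% and 2.67% of all genes passed. Between OVX-AS-IV-High and OVX the count of 0 became 0 to 1, with Cd8a past the thresholds without OVX replicate 1 or 3 (1.22% and 1.25% of genes). With a library left out, members without overlap numbered 2 to 4 in OVX vs. Sham (28.4% to 48.2% of all genes), 0 to 1 between OVX-AS-IV-High and OVX (19% to 28.1%) and 2 to 5 between OVX-AS-IV-High and Sham (24.8% to 40%). In OVX-AS-IV-High vs. OVX, paired by number, the replicate block left 0 members past the thresholds. The causes of these changes were not tested beyond the loss of the library named.

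Log2FC changed sign in 39 of 510 combinations of member, comparison and alternative. In OVX vs. Sham, leaving out single libraries gave -0.13 to 1.07 for Cd3d, -0.078 to 0.32 for Cd3g, -0.21 to 0.49 for Cd4, -0.0044 to 0.61 for Cd8b and -0.052 to 0.97 for Cd2. In OVX-AS-IV-High vs. OVX it gave -0.80 to 0.41 for Cd3d, -0.94 to 0.52 for Cd3e, -0.37 to 0.034 for Cd3g, -1.14 to 0.19 for Cd247, -0.22 to 0.17 for Cd4, -1.17 to 0.11 for Cd8a and -0.25 to 0.37 for Cd8b. In OVX-AS-IV-High vs. Sham it gave -0.070 to 0.52 for Cd3d, -0.17 to 0.087 for Cd3g, -0.23 to 0.59 for Cd247, -0.21 to 0.48 for Cd4 and -0.26 to 0.39 for Cd2, which was 0.037 with the replicate block. Without the filter, Cd4 was 0.0004 in OVX-AS-IV-High vs. OVX. Relative to Ptprc, OVX vs. Sham gave -0.13 for Cd3g and -0.16 for Cd4, and OVX-AS-IV-High vs. Sham gave -0.48 for Cd3d, -0.047 for Cd3e, -0.52 for Cd247, -0.60 for Cd4, -0.43 for Cd8a, -0.34 for Cd8b, -0.16 for Cd5 and -0.19 for Lck.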

Other observations

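The levels reported here rest on 3 libraries a group, of which 1 in OVX stood apart. Several members had few counts: Cd3d had 28 to 129, Cd247 40 to 224 and Cd8b 51 to 123 counts a library. Cell types were not separated, and the antigen-binding chains of the receptor were not analysed here. Promoter windows of Cd4 and Cd8b were not used here.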
